A study of Mus musculus with 24 samples.

Results

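The heat shock protein and chaperone genes of thymocytes were examined across T cell selection in the diabetes-prone NOD strain and the B10 strain. Genes were taken by their platform symbols: those beginning Hsp (Hspg excluded), Dnaj, Pdia or Cct with a digit, together with Tcp1, Calr, Canx, Hsf2, Bag1, Bag3 and Stip1. A gene was kept where its brightest probeset had a mean signal of at least 32 over the 24 arrays. The rule named 80 genes on the array, and 63 of them reached the minimum, of 7530 genes in the whole series that did. All 63 also passed the filter on low signal used in the tests. The 17 genes below the minimum included the stress-inducible Hspa1a and Hspa1b (mean signals 11.8 and 17.9), the co-chaperone Bag3 (28.4) and the heat shock factor Hsf2 (2.75). Nearest to the minimum were Dnajb8, Dnajc18 and Hspa2 inside it (39.2, 39.6 and 40.8) and Hspb7 and Hspb2 outside it (31.8 and 31.2).

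Thymocytes came from female NOD.H2k (NOD) and C57BL10.H2k (B10) mice of 6 to 8 weeks, every group carrying the 3A9 TCR transgene, which recognises a hen egg lysozyme peptide on I-Ak. Part of the mice also carried insHEL, hen egg lysozyme driven by the insulin promoter, which the thymic medulla expresses under Aire. Cells of every group were stained for sorting in the transcription inhibitors actinomycin D and alpha-amanitin. Affymetrix mouse 430A arrays gave 3 arrays for each of 8 groups, each array holding RNA from a pool of sorted cells. The groups were NOD S- and B10 S- (CD4+ CD8low CD69+ 1G12+ thymocytes of TCR insHEL mice, undergoing negative selection), NOD S+ and B10 S+ (the same gate in TCR mice, undergoing positive selection), and NOD and B10 pre-selection cells, PreS (CD4+CD8+ CD69- 1G12-), from TCR and from TCR insHEL mice. Both PreS groups of a strain were merged into 1 group of 6 arrays. Nothing in the sources shows that the pools of a group came from separate litters, so the p-values measure the spread between these arrays.

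Chaperones hold unfolded proteins and help them reach their native form. HSP70 proteins bind short exposed stretches of a client under the control of J proteins (the Dnaj genes), which start their ATP cycle, and of exchange factors such as Bag1 and Hsph1, which end it. HSP90 then finishes kinases and receptors, the TRiC ring folds actin and tubulin, HSP60 and HSP10 serve the mitochondrial matrix, and BiP (Hspa5), calreticulin, calnexin and the protein disulphide isomerases serve the endoplasmic reticulum (ER). In thymocytes the ER set assembles the T cell receptor and its co-receptors, and HSP90 stabilises kinases of the receptor pathway such as Lck.

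Known stress elements mark some of these genes, and 6 promoters are shown because the ER genes and the HSP60 and HSP10 pair that share an element are followed as groups below. Each is the 250 bases before the RefSeq transcription start (mouse build GRCm38.p6), 5′ to 3′ on the gene's strand, with matches to the motif on either strand in capitals. In Hspa5, Calr, Hsp90b1 and Pdia6 the capitals mark the ER stress response element (ERSE), in Pdia3 the CCAAT box alone, and in Hspe1 overlapping matches to the heat shock element (HSE).
Hspa5, chr2:34771840-34772089, plus strand: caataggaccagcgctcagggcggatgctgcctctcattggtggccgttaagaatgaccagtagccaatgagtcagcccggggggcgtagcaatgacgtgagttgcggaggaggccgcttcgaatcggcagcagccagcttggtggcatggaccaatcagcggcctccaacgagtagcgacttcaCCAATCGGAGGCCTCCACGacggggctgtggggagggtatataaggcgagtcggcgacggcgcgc
Calr, chr8:84846932-84847181, minus strand: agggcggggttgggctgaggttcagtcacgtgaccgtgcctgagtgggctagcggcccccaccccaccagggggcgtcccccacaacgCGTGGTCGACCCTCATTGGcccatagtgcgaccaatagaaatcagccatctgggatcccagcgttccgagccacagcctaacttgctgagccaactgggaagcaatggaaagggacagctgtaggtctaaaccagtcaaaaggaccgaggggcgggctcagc
Hsp90b1, chr10:86705445-86705694, minus strand: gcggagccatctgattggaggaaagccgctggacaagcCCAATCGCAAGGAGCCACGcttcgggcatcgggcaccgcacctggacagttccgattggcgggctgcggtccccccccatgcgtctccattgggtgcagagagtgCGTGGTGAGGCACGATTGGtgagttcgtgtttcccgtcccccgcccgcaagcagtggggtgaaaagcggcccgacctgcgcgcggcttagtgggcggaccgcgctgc
Pdia6, chr12:17266339-17266588, plus strand: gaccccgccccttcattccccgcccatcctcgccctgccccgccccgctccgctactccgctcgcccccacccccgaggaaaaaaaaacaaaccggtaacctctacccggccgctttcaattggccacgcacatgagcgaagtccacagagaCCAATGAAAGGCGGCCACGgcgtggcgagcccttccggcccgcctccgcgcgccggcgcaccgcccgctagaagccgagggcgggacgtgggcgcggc
Pdia3, chr2:121413652-121413901, plus strand: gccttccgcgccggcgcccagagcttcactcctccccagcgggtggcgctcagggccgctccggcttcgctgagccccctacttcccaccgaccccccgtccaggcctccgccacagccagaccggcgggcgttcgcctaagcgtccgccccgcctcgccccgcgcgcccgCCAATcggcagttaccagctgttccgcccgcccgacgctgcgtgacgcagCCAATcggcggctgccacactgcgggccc
Hspe1, chr1:55087898-55088147, plus strand: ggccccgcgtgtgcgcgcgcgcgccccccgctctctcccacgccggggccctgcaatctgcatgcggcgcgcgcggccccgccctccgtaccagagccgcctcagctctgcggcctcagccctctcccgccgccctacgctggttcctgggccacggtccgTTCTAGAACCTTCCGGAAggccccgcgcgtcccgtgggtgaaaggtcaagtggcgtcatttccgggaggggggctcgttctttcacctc

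Both strands were searched for the ERSE (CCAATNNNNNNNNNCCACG, which holds a CCAAT box), the HSE (GAANNTTCNNGAA) and the CCAAT box (CCAAT). Of the 63 genes, 53 had an entry in the RefSeq promoter table. A gene was counted where any of its promoters held a match. An ERSE match lay in 6 of the 53 (Calr, Canx, Dnajc3, Hsp90b1, Hspa5 and Pdia6), beside 0.13% of all 27025 genes of that table. An HSE match lay in 3 of the 53 (Dnajb6, Hspd1 and Hspe1), beside 0.514% of all genes. The Hspd1 and Hspe1 genes, which run in opposite directions from a shared stretch, hold the same match. A CCAAT box, within an ERSE or not, lay in 25 of the 53 and in 37.5% of all genes. A match describes these letters only.

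Most markers of CD4+CD8+ and of maturing thymocytes followed the labels. Rag1, a recombinase gene of CD4+CD8+ thymocytes, had group median signals of 122 to 363 in the S+ and S- groups, against 1108 in NOD PreS and 1101 in B10 PreS cells. Of 6 markers of CD4+CD8+ thymocytes 4 to 6 fell in each of the 4 comparisons with PreS, and 4 of 5 markers of maturing thymocytes rose in each. Cd5, a marker of maturing thymocytes, had a median of 638 in NOD S+ and 1067 in NOD PreS cells. Among T lineage markers, medians of Cd3d (1137 against 2423), Lat (892 against 1192), Cd3g and Thy1 were lower in NOD S+ than in NOD PreS cells. Those of Cd3e and Cd4 were higher. Arrays of a group correlated at r = 0.843 to 0.967 over probesets. A technical measure differed between strains. The log2 ratio of 3' to 5' control probesets for Actb and Gapdh, a sign of shortened RNA, was 1.59 to 5.82 in NOD S+, 1.44 to 3.12 in NOD S- and 1.41 to 4.94 in NOD PreS arrays, against 1.39 to 4.02 in B10 S+, 0.99 to 2.46 in B10 S- and 1.06 to 2.75 in B10 PreS arrays. The 3 highest values belonged to NOD S+ 1 and 2 (5.82 and 5.15) and NOD PreS insHEL 1 (4.94). Among B10 S+ arrays the value of 4.02 belonged to B10 S+ 1, against 1.47 and 1.39 on B10 S+ 2 and 3. The arrays were hybridised on 9 days, and few days held both groups of a comparison.

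Leaving PreS for S+ or S- moved few chaperone genes past the test, and more of them down than up. In NOD S+ cells, 2 of the 63 genes rose and 9 fell against PreS, beside 6.13% and 8.66% of all 12838 probesets tested. In NOD S- cells none rose and 4 fell, beside 5.51% and 5.68%. In B10 S+ cells 2 rose and 5 fell, beside 7.37% and 9.44%. In B10 S- cells 2 rose and 3 fell, beside 4.42% and 6.8%. Calls are limma tests on the log2 scale with Benjamini-Hochberg adjusted p under 0.05 over all probesets tested, and apart from the falls in NOD S+ cells the counts lay near or below the shares for all probesets. The median log2 fold change of the 63 genes was -0.23 in NOD S+, -0.27 in NOD S-, -0.17 in B10 S+ and 0.09 in B10 S- cells, beside medians of 0.02, 0.02, 0.04 and 0.01 over all probesets. Below, single signals are those of the 3 arrays of a group, PreS groups are given by their range and median over 6 arrays, a mean signal stands with its SD and a log2 fold change with its SE. The S+ and S- comparisons of a strain share their PreS arrays. In sorted pools, fewer cells of a type and less RNA per cell cannot be told apart.

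**Figure D1:**
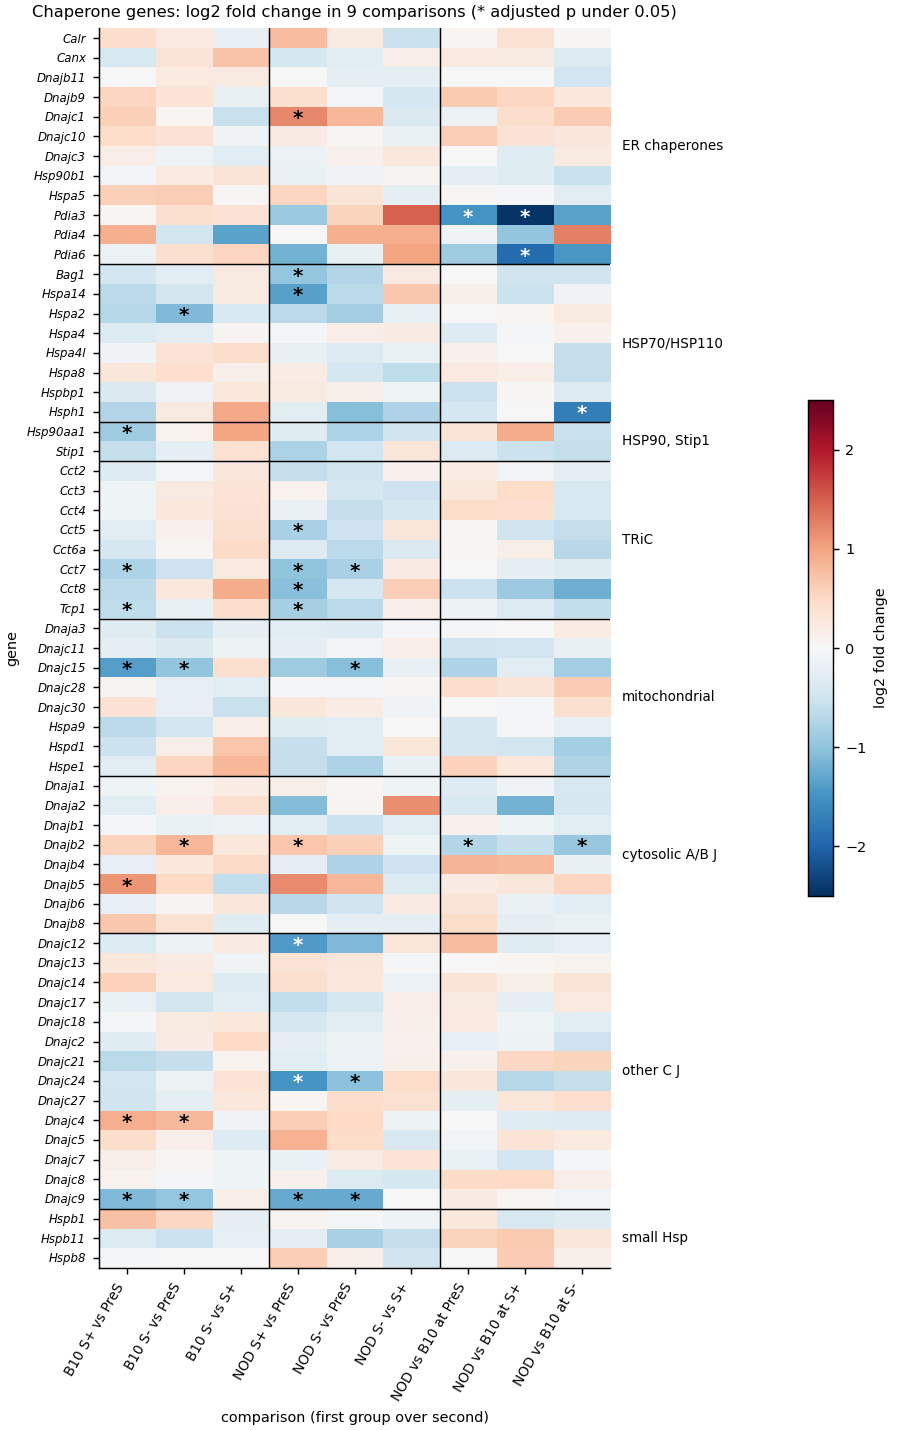
Log2 fold change (colour, -2.5 to 2.5, first group over second) of the 63 chaperone genes (rows, grouped by role) in 9 comparisons (columns), with stars where the limma adjusted p was under 0.05. Dnajc9 carried a star in all 4 comparisons with PreS, and no gene carried one in either comparison of S- with S+.

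Subunit genes of the TRiC chaperonin made up 4 of the 9 genes that fell in NOD S+ and 2 of the 5 that fell in B10 S+ cells. This ring of different subunits folds actin, tubulin and other cytosolic proteins, and 8 subunit genes were measured. Of these, 7 lay below 0 in NOD S+ against PreS (median log2 fold change -0.71, 4 called lower), 8 in NOD S- (-0.55, 1 called) and 8 in B10 S+ (-0.38, 2 called), while in B10 S- 5 of 8 lay above 0 (0.08, none called). None rose past the test in any comparison.

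The subunit gene Cct7 had signals of 1203, 1143 and 1031 in NOD S- and 845, 789 and 1206 in NOD S+ cells, against 1703 to 2045 (median 1932) in NOD PreS cells. In the other strain it had 1364, 1497 and 1206 in B10 S- and 867, 1323 and 1321 in B10 S+ cells, against 1722 to 2291 (median 2056) in B10 PreS cells. Every S+ and S- array thus lay below every PreS array of its strain. Relative to PreS the log2 fold change was -1.01 ± 0.20 (SE) in NOD S+ (adjusted p = 0.00606), -0.82 ± 0.20 in NOD S- (0.0199) and -0.77 ± 0.18 in B10 S+ cells (0.00886), and -0.52 ± 0.18 in B10 S- cells (0.0837), which did not pass. Another Cct7 probeset gave -1.60 in NOD S+ (adjusted p = 0.012), -0.66 in NOD S- (0.267) and -1.20 in B10 S+ cells (0.022).

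Tcp1, the founding TRiC subunit, had 918, 733 and 1417 in NOD S+ cells, against 1468 to 2241 (median 1759) in NOD PreS cells. It had 1034, 1349 and 1529 in B10 S+ cells, against 1656 to 2355 (median 2149.9) in B10 PreS cells. S+ and PreS arrays did not overlap in either strain, and Tcp1 fell in both (-0.83 ± 0.24, adjusted p = 0.034 in NOD; -0.63 ± 0.18, 0.0242 in B10). Cct5 and Cct8, 2 further subunits, were called lower in NOD S+ cells. Cct5 averaged 1146 ± 325 in NOD S+ and 2039 ± 406 in NOD PreS cells (SD; -0.81 ± 0.26, adjusted p = 0.049), and its groups overlapped. Cct8 averaged 154 ± 45.6 in NOD S+ and 299 ± 126 in NOD PreS cells (-1.04 ± 0.32, adjusted p = 0.0461), also with overlap. The other 4 subunit genes were not called in NOD S+ cells on their brightest probesets. Cct2 gave -0.60 (adjusted p = 0.0776) on that probeset, while of its other probesets 1 gave -1.28 and passed (adjusted p = 0.026) and 1 gave 0.09 (0.914). Cct3 stood at 3475 ± 1196 in NOD S+ and 3564 ± 1169 in NOD PreS cells (0.08, adjusted p = 0.902), and Cct4 at -0.16 (adjusted p = 0.78). Other probesets of Cct4 ran between -0.73 (adjusted p = 0.062) and 0.90 (0.056). Cct6a gave -0.32 (adjusted p = 0.42), and another of its probesets -0.70 (0.1001).

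Of the 4 TRiC calls in NOD S+ cells, that of Cct7 held whichever of the 12 arrays was left out. Tcp1 was lost in 6 of the 12, without NOD S+ 1 or 2, NOD PreS TCR 3, NOD PreS insHEL 2 or 3 or NOD S- 3 (adjusted p up to 0.183). Cct5 and Cct8 were each lost in 10 of the 12 (adjusted p up to 0.211 and 0.229). Cct5 held without NOD S+ 3 or NOD PreS TCR 1, and Cct8 without NOD S+ 3 or NOD PreS insHEL 1. In B10 S+ cells Tcp1 was lost without B10 S+ 1 or 2 (adjusted p up to 0.116) and Cct7 without B10 S+ 1 (0.0517), and in NOD S- cells Cct7 was lost without NOD S- 2 or 3 (up to 0.127).

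**Figure D2:**
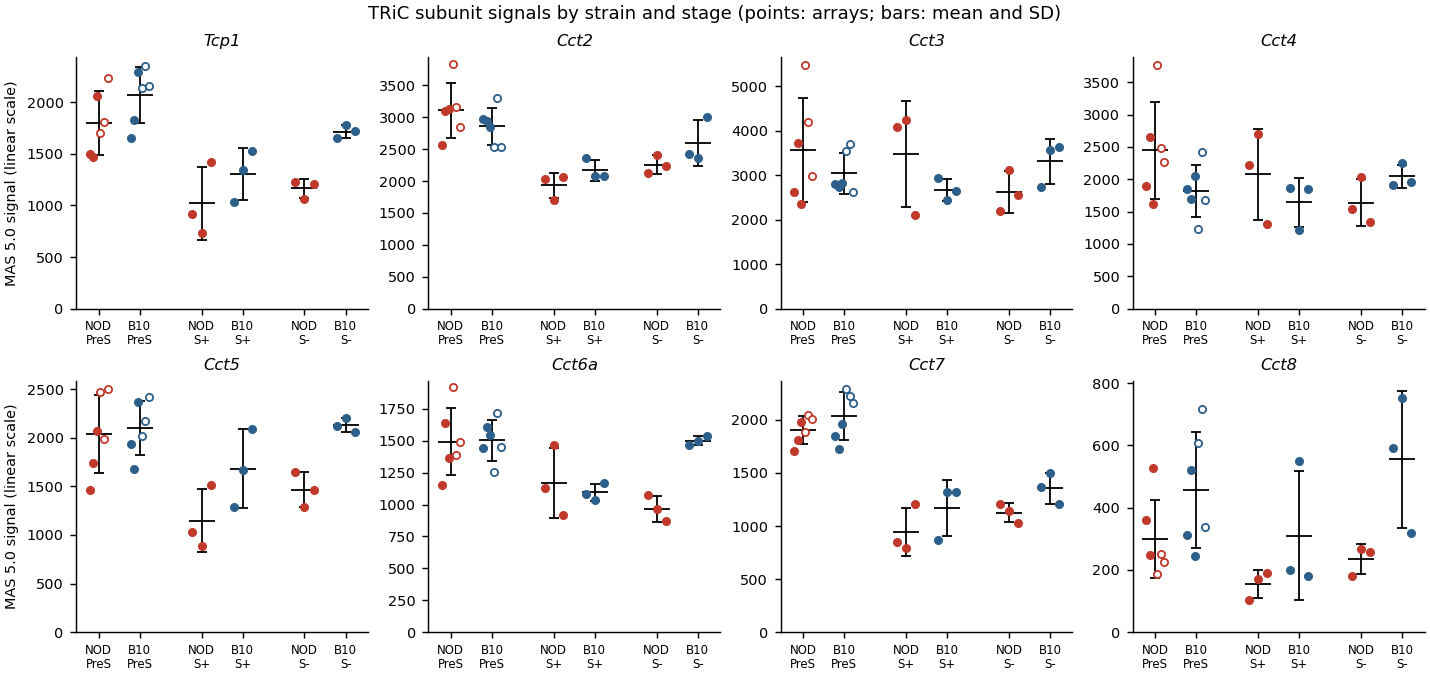
MAS 5.0 signal (linear axis from 0) of the 8 TRiC subunit genes by stage, with NOD (red) left of B10 (blue), each point an array (open points TCR insHEL mice in PreS) and bars the mean and SD. Cct7 and Tcp1 showed no overlap of S+ and PreS arrays in either strain, and B10 S- arrays stood above B10 S+ arrays for Tcp1, Cct4 and Cct6a.

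Genes of the G2/M phase fell in each comparison with PreS, to different levels. The sum over these genes was 3028 to 4831 in NOD S+, 2943 to 4392 in NOD S- and 9983 to 16101 in NOD PreS arrays. It was 1030.5 to 1827 in B10 S+, 4487 to 5771 in B10 S- and 12457 to 15163 in B10 PreS arrays. Of 19 such genes, 17 fell in NOD S+ (median log2 fold change -1.95), 17 in NOD S- (-1.86), 19 in B10 S+ (-3.39) and 17 in B10 S- cells (-1.72) against PreS. Markers of dendritic cells and macrophages also moved in NOD S+ cells, where 3 of 9 tested were called higher against PreS (Itgax, Csf1r and Adgre1; median over the 9, 0.72). The sum over the 11 markers was 3212 to 4368 in NOD S+ and 1913 to 3421 in NOD PreS arrays, and none of the 9 was called in NOD S-, B10 S+ or B10 S- cells against PreS. The part of either list in the TRiC result was not tested. Without the 3 arrays of highest 3' to 5' ratio, which leaves 1 NOD S+ array whose spread is taken from the other groups, all 11 calls in NOD S+ against PreS were lost (adjusted p = 0.130 to 0.617), the 4 TRiC calls among them. With hybridisation day as a fixed block 1 of the 7 calls in B10 S+ held (Dnajb5), and none of those in B10 S-, NOD S+ or NOD S-. The day shared by NOD S+ and NOD PreS cells held 1 array of each, so this block left few arrays to compare. No call changed direction under it, and why calls were lost was not tested.

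Among J proteins, the partners that drive HSP70, Dnajc9 moved in every comparison with PreS. Dnajc9, known in human cells as a co-chaperone of histones H3 and H4, had 775, 645 and 672 in NOD S- and 515, 597 and 934 in NOD S+ cells, against 1334 to 1971 (median 1552) in NOD PreS cells. It had 803, 624.7 and 724 in B10 S- and 643, 473 and 909 in B10 S+ cells, against 1033 to 1808 (median 1432) in B10 PreS cells. No S+ or S- array reached the lowest PreS array of its strain. The log2 fold changes relative to PreS were -1.25 ± 0.24 in NOD S- (adjusted p = 0.00449), -1.27 ± 0.24 in NOD S+ (0.00429), -0.97 ± 0.23 in B10 S- (0.0148) and -1.11 ± 0.23 in B10 S+ cells (0.0045). S- minus S+ gave differences of 0.02 ± 0.27 in NOD and 0.14 ± 0.27 in B10 cells (adjusted p = 0.994 and 0.918). Leaving out any array kept the call in NOD S-, NOD S+ and B10 S+ cells, while in B10 S- cells it was lost without B10 S- 2 (adjusted p = 0.0865). On the days that held both stages, the difference was -1.03 and -0.95 in B10 S+, -1.14 in NOD S+ and -0.28 in B10 S- cells.

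Dnajc15 encodes a J protein of the mitochondrial inner membrane, also called MCJ. It had 187, 131 and 133 in NOD S- cells, against 169 to 485 (median 302) in NOD PreS cells. In B10 it had 277, 266 and 246 in S- and 135, 185 and 314 in S+ cells, against 379 to 871 (median 477) in PreS cells, with no overlap. Dnajc15 fell in these 3 comparisons, with log2 fold changes of -1.07 ± 0.31 in NOD S- (adjusted p = 0.0427), -0.98 ± 0.29 in B10 S- (0.0447) and -1.38 ± 0.29 in B10 S+ cells (0.00472). NOD S+ cells, at 177, 136 and 198, gave -0.88 ± 0.31 (adjusted p = 0.0746), which did not pass. The call in B10 S+ cells held whichever array was left out, and those in B10 S- and NOD S- cells were lost without 9 and 8 of the 12 arrays left out in turn.

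Dnajc24, whose product takes part in making diphthamide on elongation factor 2, was called lower in NOD S+ and NOD S- cells. Dnajc12, a partner of aromatic amino acid hydroxylases, was called lower in NOD S+ cells alone. Dnajc24 had 49.0, 46.3 and 38.9 in NOD S- and 25.5, 36.2 and 41.6 in NOD S+ cells, against 62.7 to 100.3 (median 82.5) in NOD PreS cells. Those arrays did not overlap with PreS (-1.02 ± 0.25, adjusted p = 0.0174 in S-; -1.48 ± 0.25, 0.00222 in S+). In B10 cells it gave -0.13 ± 0.24 in S- (adjusted p = 0.796) and -0.47 ± 0.24 in S+ (0.211), and the difference of the strains in the S+ step was -1.01 ± 0.33 (adjusted p = 0.277), which did not pass. Dnajc12 had 74.1, 66.9 and 118 in NOD S+ cells, against 113 to 415 (median 181) in NOD PreS cells (-1.42 ± 0.38, adjusted p = 0.0254), with overlapping signals. For Dnajc12 the difference of the strains in the S+ step was -1.08 ± 0.58 (adjusted p = 0.648), which did not pass. The Dnajc24 probeset is of a type that can read a shared sequence.

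A few J protein genes rose. Dnajc4, a J protein, had 111, 129 and 139 in B10 S- and 121, 157 and 121 in B10 S+ cells, against 50.2 to 84.9 (median 63.4) in B10 PreS cells. Both groups stood above all PreS arrays (0.81 ± 0.20, adjusted p = 0.0204 in S-; 0.91 ± 0.20, 0.00723 in S+). NOD S+ cells also lay above NOD PreS cells, at 111, 112 and 113 against 37.6 to 77.7 (median 72.7), without passing the test (0.62 ± 0.24, adjusted p = 0.0953). Dnajb2, which binds ubiquitin and passes clients to the proteasome, had 107, 101.2 and 108 in NOD S+ cells, against 48.3 to 64.4 (median 57.5) in NOD PreS cells (0.70 ± 0.19, adjusted p = 0.0251). It had 177, 166 and 214 in B10 S- cells, against 68.6 to 134 (median 102) in B10 PreS cells (0.82 ± 0.21, adjusted p = 0.0242), a call lost when any of the 3 B10 S- arrays was left out.

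Dnajb5, a cytosolic relative of Dnajb1, averaged 86.4 ± 27.5 in B10 S+ and 37.8 ± 14.9 in B10 PreS cells (1.11 ± 0.30, adjusted p = 0.0223), with overlapping arrays. Another Dnajb5 probeset gave 0.87 (adjusted p = 0.202). Dnajc1, an ER membrane J protein that sits at the ribosome, averaged 329 ± 152 in NOD S+ and 135 ± 55.4 in NOD PreS cells (1.20 ± 0.37, adjusted p = 0.0435), and all NOD S+ arrays stood above all NOD PreS arrays. The call was lost in 9 of 12 cases with an array left out (adjusted p up to 0.231) and held without NOD S+ 3 or NOD PreS TCR 1 or 2. The remaining J protein genes passed in no comparison of stages on their brightest probeset. By another probeset Dnajc3, an ER J protein, was called lower in NOD S+ (-0.74), NOD S- (-0.69) and B10 S- cells (-1.21).

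The cytosolic HSP70 and HSP90 genes differed among themselves. Hsp90ab1, a further cytosolic HSP90 gene, was not among the 80 genes named by the rule, so it was not examined. Hspa8, the constitutive HSP70, had 2782, 4769 and 3652 in NOD S- and 4877, 7549 and 3312 in NOD S+ cells, against 3537 to 6504 (median 5027) in NOD PreS cells. It had 4039, 5824 and 6092 in B10 S- and 4649.6, 5856 and 4380.0 in B10 S+ cells, against 3868 to 4887 (median 4292) in B10 PreS cells. Its groups overlapped in all of these, with adjusted p between 0.24 and 0.738.

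Hsp90aa1, the inducible HSP90, had 624.9, 1073 and 901 in B10 S+ cells, against 1385 to 2029.8 (median 1575) in B10 PreS cells. All S+ arrays lay below all PreS arrays, and the gene fell (-0.90 ± 0.21, adjusted p = 0.00789), a call that held whichever array was left out. The lowest signal was that of B10 S+ 1, the B10 S+ array of highest 3' to 5' ratio (4.02). With the ratio as a covariate the call was kept. Of its other probesets 1 gave -1.40 (adjusted p = 0.017) and 1 gave -1.25 (0.063). NOD S+ cells, at 1691, 1756 and 1149 against 1342 to 3008 (median 1912) in NOD PreS cells, gave -0.30 ± 0.28 (adjusted p = 0.513). Stip1, which bridges HSP70 and HSP90, averaged 139.5 ± 55.8 in NOD S+ and 219 ± 81.6 in NOD PreS cells (-0.80, adjusted p = 0.112), and 190.2 ± 46.4 in B10 S+ and 286 ± 95.1 in B10 PreS cells (-0.60, 0.173).

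Hspa14, an HSP70 relative at the ribosome, had 243, 225 and 439.7 in NOD S+ cells, against 486 to 939.9 (median 705) in NOD PreS cells. It fell with no overlap (-1.35 ± 0.29, adjusted p = 0.00934), whereas another of its probesets gave 0.03 (adjusted p = 0.976). Bag1, an exchange factor of HSP70, had 304, 263 and 382 in NOD S+ cells, against 419 to 832 (median 589.9) in NOD PreS cells, and fell as well (-0.97 ± 0.24, adjusted p = 0.0185). In B10 S+ cells Hspa14 gave -0.68 ± 0.24 (adjusted p = 0.0646) and Bag1 -0.48 ± 0.24 (0.192). Hspa2, an HSP70 best known from testis, was called lower in B10 S- cells at 37.2, 23.2 and 16.2, against 29.5 to 58.2 (median 48.3) in B10 PreS cells (-1.09 ± 0.29, adjusted p = 0.0265), with signals near the minimum and overlapping groups.

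No ER chaperone gene fell past the test between stages on its brightest probeset. Of 12 such genes, 6 lay above 0 in NOD S+, 7 in NOD S-, 9 in B10 S+ and 10 in B10 S- cells against PreS (median log2 fold changes 0.00, 0.07, 0.31 and 0.28), and Dnajc1 in NOD S+ cells was the gene called. BiP (Hspa5), the ER HSP70, had 2376, 2725 and 2485 in NOD S- and 3411, 2271 and 2473 in NOD S+ cells, against 1581 to 2159.7 (median 2042) in NOD PreS cells. In B10 it had 2377, 3394 and 3123 in S- and 2711, 3447 and 2738 in S+ cells, against 1462 to 2522 (median 2109) in PreS cells. All arrays of NOD S-, NOD S+ and B10 S+ cells stood above all PreS arrays of their strain, yet no difference passed. The log2 fold changes were 0.31 ± 0.22 (adjusted p = 0.377), 0.53 ± 0.22 (0.111), 0.62 ± 0.21 (0.084) and 0.60 ± 0.21 (0.0755) for NOD S-, NOD S+, B10 S- and B10 S+ cells.

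Calreticulin (Calr), a lectin that retains unfinished glycoproteins, averaged 3080.3 ± 929 in NOD S+ and 1922 ± 449 in NOD PreS cells (0.77 ± 0.28, adjusted p = 0.0856). Another Calr probeset gave 0.75 and passed (adjusted p = 0.045). In B10 cells Calr averaged 2551 ± 577 in S+ and 1934 ± 356 in PreS (0.44 ± 0.23, adjusted p = 0.214). Calnexin (Canx), its membrane-bound relative, averaged 799.9 ± 145 in NOD S+ and 1079.7 ± 109 in NOD PreS cells (-0.44, adjusted p = 0.162), and 739 ± 255 in B10 S+ and 967 ± 236 in B10 PreS cells (-0.40, 0.405). The ER HSP90 (Hsp90b1), which folds integrins and Toll-like receptors, gave -0.17 in NOD S+ and -0.08 in B10 S+ cells (adjusted p = 0.613 and 0.833). The 4 ERSE promoters printed above thus belonged to genes of which none passed on its chosen probeset in a comparison of stages.

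**Figure D3:**
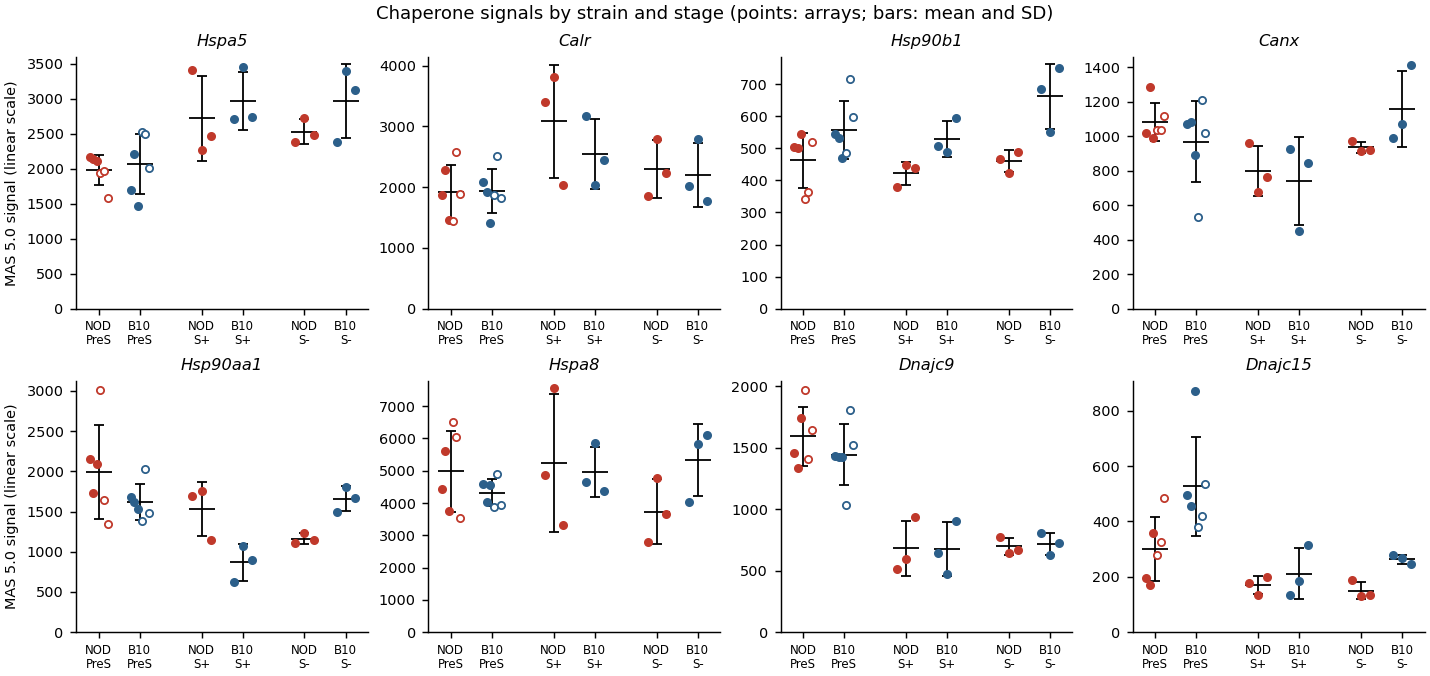
MAS 5.0 signal (linear axis from 0) of Hspa5, Calr, Hsp90b1, Canx, Hsp90aa1, Hspa8, Dnajc9 and Dnajc15 by stage, with NOD (red) left of B10 (blue), each point an array (open points TCR insHEL mice in PreS) and bars the mean and SD. Dnajc9 stood below PreS in all S+ and S- arrays of both strains, and Hsp90aa1 stood at 1498 to 1806 in B10 S- arrays, against 624.9 to 1073 in B10 S+ arrays.

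The mitochondrial HSP60 and HSP10 genes gave no call between stages. Hspd1 (HSP60) averaged 956 ± 273 in NOD S+ and 1441 ± 341 in NOD PreS cells (-0.57, adjusted p = 0.164), and 1377 ± 459 in B10 S+ and 2010.3 ± 363 in B10 PreS cells (-0.54, 0.133). Hspe1 (HSP10), which shares the promoter stretch shown above, gave -0.59 in NOD S+ and -0.28 in B10 S+ cells (adjusted p = 0.236 and 0.485). The matrix HSP70 Hspa9 gave -0.30 and -0.65 (0.438 and 0.0745) in the same comparisons. The 3 small heat shock protein genes, Hspb1, Hspb8 and Hspb11, were called in no comparison of the main fit. Under alternatives of the limma fit, Hspb1 passed in B10 S+ with hybridisation day as a fixed block (1.14, adjusted p = 0.042). It also passed in B10 S- against PreS arrays of TCR insHEL mice alone (0.90, 0.040). Hspb8 passed in NOD S+ against B10 S+ without B10 S+ 1 (0.89, 0.0495).

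Negative selection was set against positive selection within each strain. No chaperone gene passed in B10 S- against B10 S+ cells, beside 1.67% of all probesets, although 8 genes had an unadjusted p under 0.05 (12.7% of the 63, beside 11.7% of all probesets). The methods' t-test also called none after adjustment and 7 before it. Deposited signals of 9 genes stood above all B10 S+ arrays in all B10 S- arrays, beside 8.62% of all probesets: Hsp90aa1, Hspe1, Hspd1, Tcp1, Cct4, Cct6a, Canx, Hspa4l and Hspbp1. Those of 1 gene, Dnajc8, stood below, beside 7.3%. With the arrays standardised as for the test, 7 genes stood above and none below, beside 7.93% and 8.31% of all probesets.

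Hsp90aa1 came nearest, at 1498, 1806 and 1671 in B10 S- and 624.9, 1073 and 901 in B10 S+ cells. The difference was 0.99 ± 0.24 (adjusted p = 0.0528), and 0.46 and 1.47 on the days that held both. The day that gave 1.47 held B10 S+ 1, the B10 S+ array of highest 3' to 5' ratio. Against B10 PreS cells, B10 S- cells gave 0.10 ± 0.21 for this gene (adjusted p = 0.821). Hspe1 had 1127, 1151 and 1496 in B10 S- and 675, 553 and 993 in B10 S+ cells (0.82 ± 0.28, adjusted p = 0.207), and Hspd1 had 1991, 2199.5 and 2101 in B10 S- and 892, 1803 and 1437 in B10 S+ cells (0.69 ± 0.27, 0.3). All 8 TRiC genes lay above 0 (median 0.38), Tcp1 at 0.44 ± 0.20 (adjusted p = 0.423). Of the 19 G2/M genes 17 rose in this comparison (median 1.69), and their part in these values was not tested.

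In NOD cells no chaperone gene passed between S- and S+, beside 0% of all probesets, and 1 had an unadjusted p under 0.05 (1.59%, beside 4.4% of all probesets). The methods' t-test called none after adjustment and 2 before it. Hsp90aa1 had 1113, 1236 and 1141 in NOD S- and 1691, 1756 and 1149 in NOD S+ cells (-0.49 ± 0.33, adjusted p = 0.803). TRiC genes had a median of 0.14 and ER genes of -0.05.

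The difference between the strains in the step to S- from S+ was tested directly. None of the 63 genes passed, beside 0.148% of all probesets, and 5 had an unadjusted p under 0.05 (methods' t-test, none adjusted and 5 unadjusted). Hsp90aa1 led at -1.49 ± 0.40 (adjusted p = 0.158), with Hsph1 at -1.72 ± 0.63 (0.448), Cct6a at -0.83 ± 0.33 (0.538), Hspe1 at -1.01 ± 0.46 (0.612) and the disulphide isomerase Pdia4 at 2.25 ± 0.86 (0.479). All 8 TRiC genes lay below 0 (median -0.29). Without NOD S+ 3 the test called Hsp90aa1 (-1.74, adjusted p = 0.029) and Hsph1 (-2.31, 0.046). For the step to S+ from PreS no gene passed either, beside 0.358%, and Dnajc24 alone had an unadjusted p under 0.05 (methods' t-test, none adjusted and 2 unadjusted).

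NOD was then set against B10 at each stage. At PreS none of the 63 genes was higher in NOD and 2 were lower, beside 1.65% and 2.48% of all probesets. At S+ none was higher and 2 were lower, beside 1.84% and 1.86%. At S- none was higher and 2 were lower, beside 1.17% and 1.15%. The genes were Pdia3, Pdia6, Dnajb2 and Hsph1, and all 6 calls were lower in NOD.

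Pdia3 (ERp57), the disulphide isomerase that works with calreticulin and calnexin and in loading MHC class I, was lower in NOD at PreS and S+. It had 48.5, 49.3 and 132 in NOD S+ cells, against 197, 451 and 473 in B10 S+ cells. In PreS cells it had 34.4 to 184 (median 144) in NOD, against 183 to 477 (median 352) in B10. NOD lay below B10 on all arrays at S+, and at PreS the ranges overlapped. The differences were -2.46 ± 0.52 at S+ (5.49-fold, adjusted p = 0.00718) and -1.49 ± 0.37 at PreS (2.81-fold, adjusted p = 0.0176). At S- NOD cells had 245, 117 and 204 and B10 cells 589.6, 519 and 293 (-1.34 ± 0.52, adjusted p = 0.207). Within the 3 days that held both strains at PreS the difference was -1.02, -1.66 and -1.01.

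Pdia6 (P5), a disulphide isomerase of the ER, had 99.4, 138 and 384 in NOD S+ cells, against 245, 1084 and 962 in B10 S+ cells. Its groups overlapped at B10 S+ 1, and the difference was -1.92 ± 0.50 (3.79-fold, adjusted p = 0.03). At S- it averaged 347 ± 74.8 in NOD and 929 ± 211 in B10 cells (-1.46 ± 0.50, adjusted p = 0.139), and at PreS 388 ± 167 in NOD and 721 ± 189 in B10 cells (-0.89 ± 0.35, 0.181).

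Both isomerases were lower on arrays of higher 3' to 5' ratio. Pdia3 was lowest on NOD PreS insHEL 1, NOD S+ 1 and NOD S+ 2 (34.4, 48.5 and 49.3), the 3 arrays of highest ratio. With the ratio as a covariate Pdia3 gave -1.52 at S+ (adjusted p = 0.001) and -0.88 at PreS (0.005), and Pdia6 -1.02 at S+ (0.021). Without those 3 arrays Pdia3 gave -1.45 at S+ (adjusted p = 0.407) and -1.18 at PreS (0.021), and Pdia6 -0.76 at S+ (0.970). Markers of dendritic cells and macrophages also differed at S+: the sum over 11 markers was 3212 to 4368 in NOD S+ and 1115 to 2059 in B10 S+ arrays, and 2 of 9 tested (Itgax and Cd74) were higher in NOD, with no marker of the list at a mean of 0. Of 6 markers of CD4+CD8+ thymocytes 3 were also higher in NOD S+ cells (Rag1, Rag2 and Dntt, median over the 6, 1.31), with sums of 3338 to 4585 in NOD S+ and 659 to 871 in B10 S+ arrays. In these sums Dntt had group medians of 2804 in NOD S+ and 104 in B10 S+ cells, and of 5074 in NOD PreS and 585 in B10 PreS cells. Cd8b1 went the other way, with medians of 39.7 in NOD S+ and 201 in B10 S+ cells. Jchain (3.23), the 1 plasma cell marker tested, was higher in NOD S+ cells, and so were 11 of the 19 G2/M genes. The part of these lists was not tested.

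**Figure D4:**
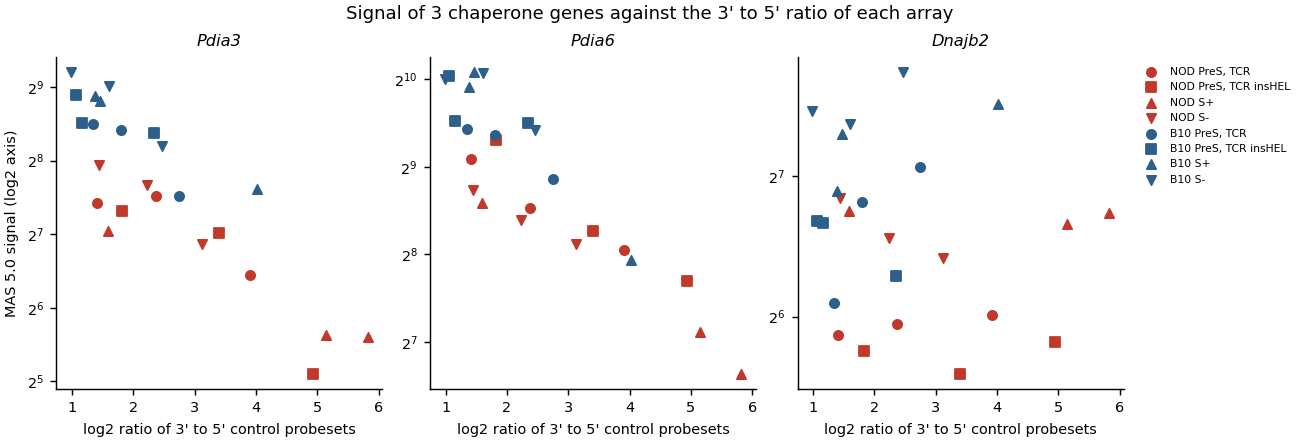
MAS 5.0 signal (log2 axis) of Pdia3, Pdia6 and Dnajb2 on each array against the log2 ratio of its 3' to 5' control probesets, NOD red and B10 blue, with symbols for stage. Pdia3 and Pdia6 were lower on arrays of higher ratio in both strains, while Dnajb2 in NOD PreS arrays stayed between 48.3 and 64.4 over ratios of 1.41 to 4.94.

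Dnajb2 was lower in NOD at PreS and S-. It had 115, 85.3 and 94.4 in NOD S- cells, against 177, 166 and 214 in B10 S- cells. At PreS it had 48.3 to 64.4 (median 57.5) in NOD, against 68.6 to 134 (median 102) in B10. No NOD array reached the lowest B10 array of its stage, S+ included. The differences were -0.95 ± 0.22 at S- (adjusted p = 0.0156), -0.58 ± 0.22 at S+ (0.145, not called) and -0.73 ± 0.15 at PreS (0.0046). Within shared days they were -1.14 at S- and -0.998, -0.83 and -0.51 at PreS, and without the 3 arrays of highest ratio -0.95 at S- (adjusted p = 0.017) and -0.75 at PreS (0.008). The PreS call held whichever of the 24 arrays was left out.

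Hsph1, the HSP110 exchange factor of HSP70, was lower in NOD at S-. It had 238, 411 and 245 in NOD S- cells, against 1032, 1202 and 621 in B10 S- cells, with no overlap. The difference was -1.73 ± 0.45 (3.31-fold, adjusted p = 0.0396), and -1.39 on the day that held both. Another Hsph1 probeset gave -1.65 (adjusted p = 0.088). At S+ the gene averaged 526.3 ± 283 in NOD and 512 ± 246 in B10 cells (0.00, adjusted p = 0.996), and at PreS 579 ± 169 in NOD and 845 ± 319 in B10 cells (-0.44, 0.454). With hybridisation day as a fixed block none of the 6 calls between strains held (adjusted p = 0.092 to 0.391), and none changed direction. The shared day at S- held 1 array of each strain, and no day held both strains at S+. The block thus left few arrays to compare, and why calls were lost was not tested.

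**Figure D5:**
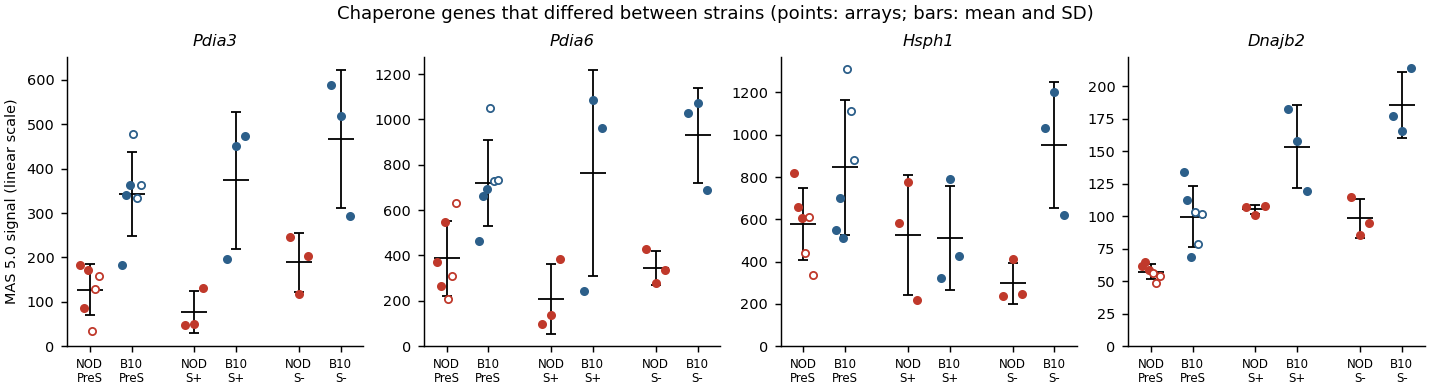
MAS 5.0 signal (linear axis from 0) of Pdia3, Pdia6, Hsph1 and Dnajb2 by stage, with NOD (red) left of B10 (blue), each point an array (open points TCR insHEL mice in PreS) and bars the mean and SD. NOD S- arrays lay below B10 S- arrays for all 4 genes, and for Hsph1 the strains overlapped at PreS and S+.

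At S- many chaperone genes lay lower in NOD without passing the test. Of the 63, 42 lay below 0 (median -0.26, beside 0.00 over all probesets), and 20 had all NOD signals below all B10 signals as deposited, beside 12.6% of all probesets, with 7 the other way, beside 15.1%. With the arrays standardised the counts were 19, beside 13.8%, and 7, beside 14.7%. The 8 TRiC genes lay below 0 (median -0.50), among them Cct6a at -0.68 ± 0.24 (adjusted p = 0.144) and Tcp1 at -0.61 ± 0.23 (0.186). HSP60 (Hspd1) had 1389.8, 1072 and 1160.3 in NOD S- cells, against 1991, 2199.5 and 2101 in B10 S- cells (-0.86 ± 0.28, adjusted p = 0.124). Hspa8 gave -0.60 ± 0.32 on its brightest probeset (adjusted p = 0.408), while another Hspa8 probeset gave -1.05 (adjusted p = 0.020) and another Cct3 probeset -0.78 (adjusted p = 0.046). At PreS the TRiC median between strains was 0.03 and at S+ -0.16. Other gene sets differed between the strains at S- too. The sum over the G2/M genes was 2943 to 4392 in NOD S- and 4487 to 5771 in B10 S- arrays. That over the markers of CD4+CD8+ thymocytes was 1969 to 2785 in NOD S- and 879 to 1239 in B10 S- arrays, and it was higher in NOD at PreS as well. In this list Dntt had group medians of 1535 in NOD S- and 159 in B10 S- cells, and of 5074 in NOD PreS and 585 in B10 PreS cells. Medians of Rag1, Rag2 and Ptcra were also higher in NOD S- cells. Those of Cd8a (282 against 437) and Cd8b1 (96.5 against 159.9) were lower in NOD S- cells. The part of these sets in the chaperone values was not tested.

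The insHEL transgene made no difference past the test before selection. Between PreS cells of TCR insHEL and of TCR mice, averaged over both strains, none of the 63 genes was called, beside 0% of all probesets, and 2 had an unadjusted p under 0.05 (methods' t-test, none adjusted and 2 unadjusted). They were Dnajc27 (0.62 ± 0.25) and Hspe1 (0.48 ± 0.21), each with an adjusted p of 0.992.

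The 63 genes divided into 19 that were called in at least 1 comparison and 44 that were called in none. Uncalled were the main cytosolic J proteins. Dnajb1, a J protein known as a heat shock target, had 934, 1421 and 1159 in NOD S- and 1534, 1334 and 1043 in NOD S+ cells, against 1047 to 2713 (median 1667) in NOD PreS cells. It had 1482, 1547 and 1035 in B10 S- and 1589, 1352 and 1442 in B10 S+ cells, against 1388 to 1769 (median 1542) in B10 PreS cells. Its groups overlapped throughout (adjusted p = 0.319 to 0.889 against PreS). Dnaja1, the class A partner of Hspa8, lay between -0.10 and 0.14 on the log2 scale against PreS in the same 4 comparisons. Its relative Dnaja2 varied widely within groups, at 47.4, 22.1 and 154 in NOD S+ and 46.9, 185 and 171 in B10 S+ cells, and its difference of -1.18 ± 0.62 did not pass (adjusted p = 0.305).

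The other uncalled genes are given by their range of log2 fold changes over the 9 comparisons of stages and strains. The HSP70 genes Hspa4, Hspa4l, Hspa8 and Hspbp1, which encodes an exchange factor, ranged from -0.63 to 0.43. The 10 uncalled genes of the other class C J proteins ranged from -0.67 (Dnajc21, B10 S+ against PreS) to 0.86 (Dnajc5, a vesicle J protein, NOD S+ against PreS, adjusted p = 0.0763). The mitochondrial genes ranged from -0.86 to 0.82, both ends being the HSP60 and HSP10 pair. The small heat shock proteins ranged from -0.81 (Hspb11, NOD S- against PreS, adjusted p = 0.104) to 0.73 (Hspb1, known as HSP25 in mouse, B10 S+ against PreS, 0.0876). Among uncalled ER genes the widest range was that of Pdia4, from -1.34 ± 0.53 in B10 S- against B10 S+ (adjusted p = 0.322) to 1.26 ± 0.61 in NOD S- against B10 S- cells (0.344). Pdia4 had 165, 75.6 and 69.5 in NOD S- and 40.2, 27.7 and 141 in NOD S+ cells, and 29.4, 60.7 and 38.0 in B10 S- and 58.5, 85.9 and 197 in B10 S+ cells, so that its spread within groups was large. Dnajb9, an ER J protein that is a known target of the unfolded protein response, lay above 0 in B10 S+ (0.53 ± 0.23, adjusted p = 0.134) and in NOD PreS against B10 PreS cells (0.66 ± 0.21, 0.0867) without passing.

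Partner genes of the chaperone pathways were counted from lists. Of 15 co-chaperones of HSP70 and HSP90, 3 fell in NOD S+, 2 in NOD S-, 4 in B10 S+ and 3 in B10 S- cells against PreS, and none rose. The HSP90 partner Fkbp4 fell in NOD S+ (-1.43) and B10 S+ cells (-1.22), and Fkbp5 in B10 S+ (-1.42) and B10 S- cells (-1.22). Between strains 1 was lower in NOD at S- (St13, the HSP70-interacting protein, -1.51, adjusted p = 0.003) and 1 at S+ (Bag5, -2.30, 0.025).

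The 26 genes tested of the unfolded protein response moved in both directions: 2 rose and 2 fell in NOD S+, 2 rose in NOD S-, 3 rose and 1 fell in B10 S+, and 1 fell in B10 S- cells. Hyou1, an ER exchange factor, rose by 1.30 in NOD S+ cells, and Edem1, which marks misfolded glycoproteins for disposal, fell in NOD S+ (-1.06), B10 S+ (-0.76) and B10 S- cells (-1.13). Between strains, Ern1, the ER stress sensor IRE1, was lower in NOD at S- (-1.98), S+ (-1.76) and PreS (-1.20), and the pseudokinase gene Trib3 was higher at all 3 stages (1.79, 1.22 and 1.89). Of 11 prefoldin and tubulin cofactor genes, Tbce rose in B10 S+ and S- cells (0.61 and 0.74) and Pfdn5, a prefoldin subunit, fell in NOD S+ cells (-1.30). Pfdn5 was the member of these lists that differed between strains in the step to S+ from PreS (-1.64, adjusted p = 0.047). None of 11 genes of mitochondrial import and matrix proteolysis was called in any of the 12 comparisons by limma.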

How the data were processed

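The authors amplified RNA of sorted pools in 2 rounds, hybridised 24 arrays and deposited MAS 5.0 signal values scaled to a trimmed mean of 150. These were taken as log2 signal (33 signals of 0 set to 0.1), each array standardised to a mean of 0 and a variance of 1 and put back on the common log2 scale. Of 22626 probesets without controls, 12838 were tested, those whose signal reached 32 on every array of some group (8 groups of 3), using limma 3.58.1 in R 4.3.3, per strain for stages (12 arrays each) and over all 24 arrays between strains, with Benjamini-Hochberg adjustment and a threshold of 0.05. The number of arrays limits the precision. Columns of other samples numbered 0. Each gene is its brightest probeset, named where the platform annotation gives 1 symbol (20380 probesets, 691 with several). Members and lists were chosen with earlier results of these data known. Arrays are printed for genes called in a comparison and for a fixed set of major chaperones, and other members by range and count. Same-numbered arrays of different groups correlated at a mean r of 0.0356 in their deviations, so they were not paired. Alternatives covered scaling, floor, filter, replicate block, hybridisation day, RNA ratio, samples in the fit, the methods' t-test, PreS group, probeset and arrays left out. The test was tried on simulated data.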

Additional observations from a re-analysis of the deposited data

Results flagged for a closer look

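Within the PreS groups of a strain (n = 6), the lowest or highest array of a gene was set against the others by Dixon's test, which chance passes in about 1 in 20 groups. It passed in 12 of 126 gene and group pairs. In NOD PreS cells, Dnajb6 was high on TCR insHEL 1 (1130, others 589 to 768) and Dnajc4 low on the same array (37.6, others 60.7 to 77.7), Hspa5 was low on TCR insHEL 3 (1581, others 1934 to 2160), Hspb8 low on TCR 3 (30.2, others 35.3 to 43.9) and Hspd1 low on TCR 2 (824, others 1330.1 to 1762). In B10 PreS cells, TCR insHEL 1 was low for Canx (533, others 891 to 1208), Dnaja3 (122, others 176 to 198) and Dnajc9 (1033, others 1426 to 1808) and high for Dnajb11 (516, others 250.5 to 327). B10 PreS TCR 1 was low for Dnaja2 (66.0, others 139 to 162) and Pdia3 (183, others 333 to 477), and TCR 3 was high for Dnajc18 (70.0, others 26.5 to 35.7).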

How the results depend on the processing

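Of 917 values for the 33 calls under the alternatives, arrays left out included, 715 stayed past the threshold, 202 did not and 0 changed direction. These values include the methods' t-test at unadjusted p, a looser threshold that calls past the adjusted one pass easily. Fits with 1 array left out share their other arrays with the main fit, so the values are not independent. Where a call was lost, the cause was not tested beyond what a value beside it shows. Counts of chaperone genes called are given here for settings that moved them by over 1.5 times. Shares of all probesets called are not given beside these counts, nor beside those with arrays left out. A change in count is therefore not a result about chaperone genes in particular. In NOD S+ against PreS (11 called) there were 4 with no filter, 0 with hybridisation day as a fixed block, 18 with all 24 arrays in 1 fit, 24 by the methods' t-test unadjusted, 4 with PreS arrays of the same mice, and 1 without the 3 arrays of highest 3' to 5' ratio (Hspa2), a setting chosen after seeing the data. In NOD S- against PreS (4 called) there were 1, 0, 10, 16 and 9 in the first 5 of these settings and 8 with the ratio as a covariate. In B10 S+ against PreS (7 called) there were 2 with the day block (Dnajb5 and Hspb1, the latter not called in the main fit), 19 by the unadjusted t-test and 4 with PreS arrays of the same mice. In B10 S- against PreS (5 called) there were 3 with MAS 5.0 scaling only, 1 with no filter, 0 with the day block and 10 by the unadjusted t-test. With PreS arrays of the same mice there was 1 (Hspb1), and all 5 main calls were lost. In B10 S- against B10 S+ (0 called) Hsp90aa1 was the 1 gene called with quantile normalisation, with signals under 16 set to 16, with the filter at 64, with day as a random block and with the replicate block, and the unadjusted t-test called 7.

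In NOD S- against NOD S+ the unadjusted t-test called 2. Between strains at PreS (2 called) there were 0 with the day block and 16 by the unadjusted t-test. At S+ (2 called) there were 1 with no filter, 0 with the day block, 1 by the adjusted and 9 by the unadjusted t-test, and 1 without the 3 arrays (Hspa2). At S- (2 called) there were 1 with MAS 5.0 scaling only, 1 with no filter, 0 with the day block, 6 with the ratio as a covariate, 1 by the adjusted and 15 by the unadjusted t-test, and 4 with any probeset of the gene counted. The unadjusted t-test called 2 for the strain difference in S+ against PreS, 5 in S- against S+, and 2 for PreS insHEL against PreS TCR. MAS 5.0 scaling only moved the median of all probesets to 0.16 in NOD S+ and 0.18 in NOD S- against PreS, against 0.02 each with the arrays standardised.

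With 1 array left out, the counts were 3 to 17 in NOD S+, 1 to 8 in NOD S-, 4 to 9 in B10 S+ and 0 to 6 in B10 S- against PreS, 0 to 0 in NOD S- and 0 to 1 in B10 S- against S+, 2 to 6, 0 to 8 and 0 to 2 between strains at PreS, S+ and S-, 0 to 0 and 0 to 2 for the strain differences in S+ against PreS and S- against S+, and 0 to 0 for insHEL. Pdia3 at S+ was lost without B10 S+ 3 or NOD S+ 1 (adjusted p up to 0.0552), Pdia6 without B10 S+ 2 or 3 or NOD S+ 1 or 2 (up to 0.233), Hsph1 at S- without B10 PreS insHEL 3, B10 S- 1 or 2 or NOD S- 1 or 3 (up to 0.182), and Dnajb2 at S- without B10 S- 1 or 3 or NOD S- 2 or 3 (up to 0.0839). Of the 11 calls in NOD S+ cells, Cct7, Dnajc9 and Dnajc24 in NOD S+ cells were called whichever array was left out, Bag1 and Hspa14 were lost without NOD S+ 1 or 2, Dnajc12 without either or NOD PreS insHEL 2 (adjusted p up to 0.127) and Dnajb2 without either, NOD PreS insHEL 2 or NOD PreS TCR 3 (up to 0.0912), and Cct5, Cct8, Tcp1 and Dnajc1 were lost in 10, 10, 6 and 9 of 12 cases (up to 0.231). Replicate numbers did not pair the arrays. With the replicate block the counts were 13 in NOD S+, 4 in NOD S-, 7 in B10 S+ and 5 in B10 S- against PreS, 0 in NOD S- and 1 in B10 S- against S+, 2 at each stage between strains, and 0 in the remaining 3 comparisons. With 3 arrays in most groups and signals near 32 for genes such as Hspa2 and Dnajb8, small differences could not be resolved.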
